A study of Homo sapiens with 27 samples.

Results

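The 51 genes described here encode proteins of the lysosome and of autophagy. They were chosen by name, with earlier results of these data known, from symbols present in the count table of 57992 genes. Counts of members set beside shares of all genes therefore describe this list and do not test it. By role they comprised 7 lysosomal membrane proteins, 25 hydrolases and other proteins of the lysosomal lumen, 9 subunits of the vacuolar proton pump, and 10 autophagy proteins and transcription factors of the MiT family. Their RNA was measured in 3 human cell lines of acute myeloid leukaemia (AML) in which CARM1 was knocked down. CARM1, or PRMT4, methylates arginines of histone H3 and of other proteins. SKNO1 carries the RUNX1-RUNX1T1 fusion, and the other lines, MOLM-13 and MV411, are of monocytic type and have a rearranged KMT2A gene. All groups, controls included, carried a constitutively expressed short hairpin RNA delivered by lentivirus, and RNA was extracted 3 days after delivery. The hairpin was a scramble sequence, CARM1 hairpin 1 or CARM1 hairpin 2, with 3 libraries of each in every line and 27 in all. The medium of SKNO1 held 10 ng/mL GM-CSF, a myeloid growth factor, in all 3 groups, and no supplement is listed for the other lines. The labels do not state whether the replicates were separate cultures, so the p-values measure only the spread between these libraries, which may be technical.

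The lysosome is the acidic compartment in which cells break down proteins, lipids, sugars and engulfed material. Its membrane is protected by heavily glycosylated proteins, its lumen holds hydrolases that work at acid pH, and the vacuolar proton pump (V-ATPase) acidifies it. Autophagy carries cytoplasmic cargo to it in double-membraned vesicles. The MiT factors TFEB, TFE3 and MITF activate many of these genes by binding to E-box sequences with the core CACGTG, and monocytes and macrophages, which digest what they engulf, are rich in lysosomes.

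The E-box core is shown first because it is the sequence that the MiT factors are known to bind. A promoter window of 300 bases, from 250 before to 50 after the start of the gene (RefSeq, GRCh38.p14), was matched for 37 of the 51 members. CACGTG, which reads the same on both strands, lay in at least 1 window of 9 of these 37 genes (24.3%), against 8.77% of the 27305 genes with a window. Counted by window, it lay in 9 of the 55 windows of members (16.4%), against 7.26% of all 35116 windows. The core with GT before it and AC after it, a longer palindrome, lay in windows of MCOLN1, GAA and PLD3 (8.11% of the 37 genes, against 0.421% of all genes). By role, the core was found for 3 of 6 membrane proteins, 5 of 18 lumenal proteins, 1 of 4 pump subunits and 0 of 9 autophagy proteins and MiT factors. A match is a description of the sequence and does not show that a factor binds there. The windows with the core are printed 5′ to 3′ on the strand of the gene, with CACGTG in capitals. For LAMP1, the 250 bases upstream (chr13:113296989-113297238, plus strand) hold it 5 times, and 1 more match, not printed, spans the start of the gene. For the other genes, the 28 bases around each match are given.
LAMP1: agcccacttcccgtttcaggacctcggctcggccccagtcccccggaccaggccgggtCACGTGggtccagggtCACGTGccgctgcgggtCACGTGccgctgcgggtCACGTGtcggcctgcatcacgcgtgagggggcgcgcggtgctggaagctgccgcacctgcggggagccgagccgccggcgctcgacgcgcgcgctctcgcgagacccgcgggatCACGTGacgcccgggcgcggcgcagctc
MCOLN1, first match (chr19:7522572-7522599, plus strand): ccagaggcggtCACGTGaggggctctgg
MCOLN1, second match (chr19:7522599-7522626, plus strand): ggctaccgggtCACGTGaccgaggcaca
GAA, first match (chr17:80101494-80101521, plus strand): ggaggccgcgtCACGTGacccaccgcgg
GAA, second match (chr17:80101539-80101566, plus strand): ctcccgccggtCACGTGacccgcctctg
PLD3, first match (chr19:40348504-40348531, plus strand): gccataaccatCACGTGaccgcccaccg
PLD3, second match (chr19:40348549-40348576, plus strand): gtcgtaaccgtCACGTGaccgcccaccg
CTSA, first match (chr20:45891282-45891309, plus strand): aggaagactgtCACGTGgcgccggagtt
CTSA, second match (chr20:45891299-45891326, plus strand): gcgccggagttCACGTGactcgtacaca
CTSD (chr11:1763958-1763985, minus strand): ccggccgcgccCACGTGaccggtccggg
NEU1 (chr6:31862931-31862958, minus strand): tgctgcgtgatCACGTGggaggagatga
ATP6V0D1 (chr16:67481200-67481227, minus strand): ccccttatggtCACGTGaggcgcttgcg
CD63 (chr12:55729173-55729200, minus strand): cgggtaggggcCACGTGgccctggccgg

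Library totals ranged from 25063577 to 53291599 expected counts. CARM1 itself stood at 16.2 to 28.3 CPM (counts scaled to the size of the library) in the 9 scramble libraries and at 2.62 to 8.74 CPM in the 18 knockdown libraries. As a share of the scramble mean of the line, 19.4% remained with hairpin 1 and 16.3% with hairpin 2 in MOLM-13, 26.2% and 13.0% in MV411, and 42.5% and 15.6% in SKNO1. Among all pairs of replicates, SKNO1 scramble replicates 1 and 3 differed least, with a depth-scaled chi-square of 7.757 per gene against 23.245 for the next pair, so the counts of members called in SKNO1 against scramble are also given without either. The 3 scramble libraries of MOLM-13 stood apart from one another in the members themselves. Their mean log2(CPM + 1) over the 48 members tested in all 3 lines differed from their common mean by 0.27, 0.04 and -0.31 in replicates 1, 2 and 3.

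More members rose than fell with hairpin 2 in each line, and with hairpin 1 in MOLM-13 and MV411. The hydrolase FUCA1, the autophagy receptor SQSTM1 and the autophagosome protein GABARAPL1 rose with hairpin 2 in all 3 lines. No share of all genes is given for a rise in all 3 lines. The largest count was 33 of 49 members, with hairpin 2 in MV411. Tests were edgeR's quasi-likelihood F-test, with p-values adjusted by Benjamini and Hochberg over all genes and a threshold of 0.05. Fold changes are on the log2 scale with the standard error of the fit after the ± sign. Each line tested 49 members, since ATP6V0D2 was too low everywhere, LGMN was tested in SKNO1 only, and MITF in MOLM-13 and MV411 only. With hairpin 1 in MOLM-13, 7 of 49 members rose and 0 fell, against 2.13% and 4.25% of all genes tested. The log2 fold change was above 0 for 48 of the 49, with a median of 0.64 against 0.01 over all genes. With hairpin 2 in MOLM-13, 11 rose and 0 fell, against 3.39% and 6.03% of all genes, and the medians were 0.67 and 0.07. Both hairpins of a line were compared with the same 3 scramble libraries.

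In MV411, 11 of 49 members rose and 1 fell with hairpin 1, against 2.37% and 4.13% of all genes, with medians of 0.31 for the members and 0.00 for all genes. With hairpin 2, 33 rose and 1 fell, against 8.38% and 10.2%, with medians of 0.67 and 0.00. In SKNO1, 0 members rose and 1 fell with hairpin 1, against 0.255% and 0.277% of all genes, with medians of 0.22 and -0.02. At an unadjusted p under 0.05, 12 were higher and 5 lower with hairpin 1, and DESeq2 called 7 higher and 2 lower. Shares of all genes are given for edgeR's adjusted p in the main fits only. Counts at an unadjusted p, by DESeq2 or with altered processing, here and below, have none beside them. With hairpin 2 in SKNO1, 12 rose and 2 fell, against 5.54% and 5.69%, and the medians were 0.42 and 0.00. The make-up of the RNA also differed between the groups. Mitochondrial rRNA took 22.8% to 26.4% of counts with scramble and 26.1% to 31.5% with the hairpins in MOLM-13, and 24.9% to 27.8% and 29.4% to 34.9% in MV411. The structured RNAs 7SL, 7SK, RPPH1 and RMRP took 11.3% to 13.5% with scramble and 13.3% to 21.9% with the hairpins in MOLM-13, 11.2% to 13.1% and 11.3% to 15.7% in MV411, and 17.7% to 19.9% and 23.2% to 28.7% in SKNO1. With all of these removed before scaling, 7 and 9 members rose with hairpins 1 and 2 in MOLM-13, 11 and 33 rose and 1 and 1 fell in MV411, and 0 and 11 rose and 1 and 2 fell in SKNO1. ATP6V1B2 with hairpin 2 in SKNO1 then lost its call (adjusted p = 0.056). For members that fell in MOLM-13, the count of 0 by edgeR was also 0 at an unadjusted p under 0.05 and 0 by DESeq2, with either hairpin.

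Over the 6 comparisons, 37 members rose in at least 1, 3 fell in at least 1, and 13 passed the test in none. CTSZ and ATP6V0E1 did both. FUCA1 and SQSTM1 passed the test in 5 of 6 comparisons and no member in 6. Members that rose with both hairpins numbered 6 in MOLM-13, 10 in MV411 and 0 in SKNO1. Shares of all genes are not given for the counts over several comparisons, so these counts describe the members only. As both hairpins of a line share its scramble libraries, some overlap between them is to be looked for in any gene.

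**Figure D1:**
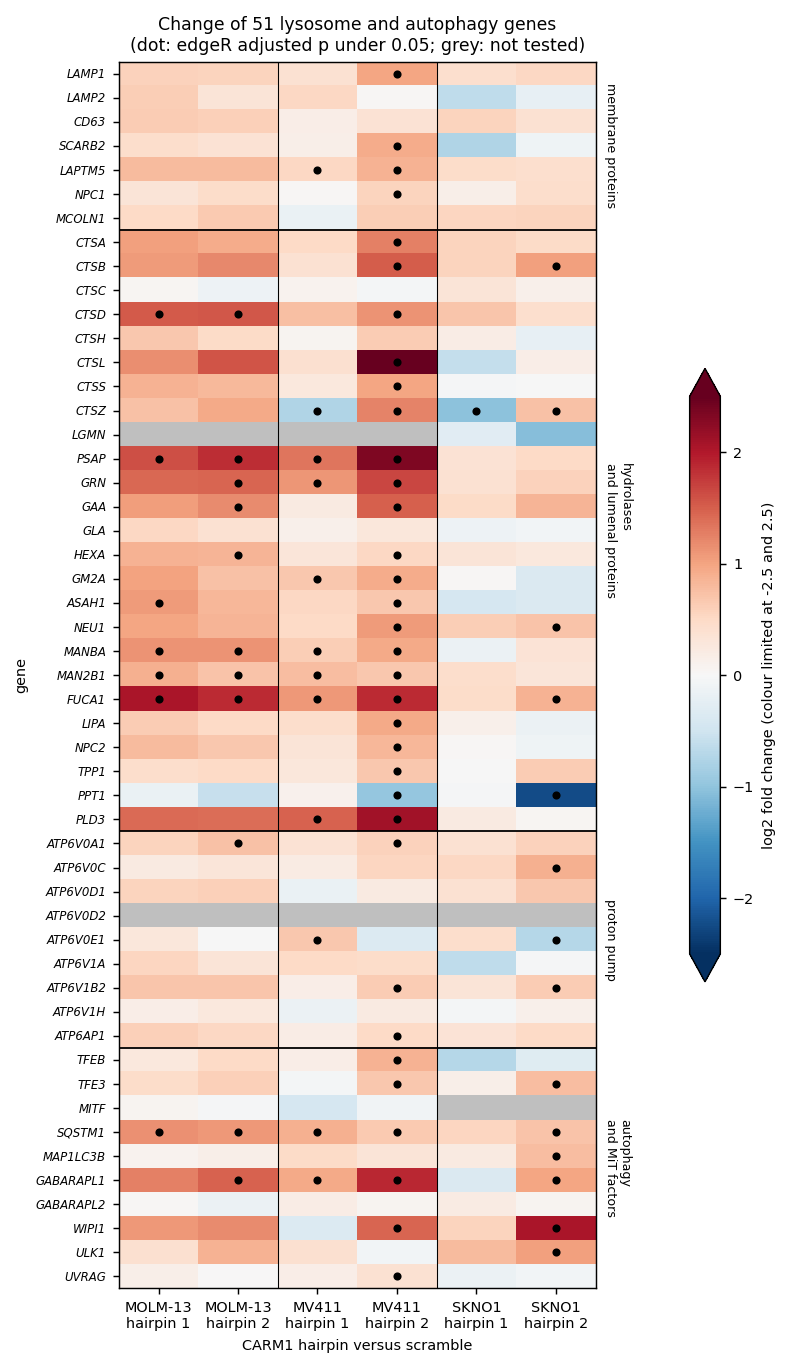
Log2 fold change of the 51 members (rows, grouped by role) for each CARM1 hairpin against scramble in each line (columns), with a black dot where the edgeR adjusted p was under 0.05 and grey where a gene was not tested. Colour is limited at -2.5 and 2.5, which only CTSL in MV411 with hairpin 2 (3.46) exceeded. The column of hairpin 2 in MV411 has 34 dots and that of hairpin 1 in SKNO1 has 1.

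Most calls in MOLM-13 were lost when 1 library was left out. Without any 1 library, 2 members (MANBA and SQSTM1) stayed past the threshold in every fit of either hairpin. Leaving out scramble replicate 1 gave 8 members for hairpin 1 in place of 7, and leaving out scramble replicate 2 or 3 or any hairpin 1 library gave 2. For hairpin 2 the 11 became 9, 2 and 2 when scramble replicates 1, 2 and 3 were left out in turn, and 11, 7 and 5 when hairpin 2 replicates 1, 2 and 3 were. Over all genes, calls for hairpin 1 went from 378 higher and 753 lower to 90 and 284 without scramble replicate 2. Those for hairpin 2 went from 602 and 1069 to 117 and 324 without it, and to 622 and 964 without hairpin 2 replicate 3. In MV411 the hairpin 1 count of 12 was 9, 8 and 6 without scramble replicates 1, 2 and 3, and 3, 5 and 8 without hairpin 1 replicates 1, 2 and 3. Over all genes, 423 higher and 736 lower became 101 and 240 without hairpin 1 replicate 1, and 317 and 868 without scramble replicate 2. The hairpin 2 count of 34 in MV411 lay between 22, without hairpin 2 replicate 1, and 37, without hairpin 2 replicate 3. Calls that passed in all 6 such fits numbered 3 for hairpin 1 in MV411 (PSAP, PLD3 and SQSTM1) and 22 for hairpin 2.

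In SKNO1 the hairpin 2 count of 14 was 5, 9 and 7 without scramble replicates 1, 2 and 3, and 6, 4 and 5 without hairpin 2 replicates 1, 2 and 3. Over all genes, 1021 higher and 1048 lower became 294 and 265 without hairpin 2 replicate 2, and 651 and 723 without scramble replicate 2. The hairpin 1 count of 1 in SKNO1 was 0 without scramble replicate 1 or 3 or hairpin 1 replicate 3, and 4 without hairpin 1 replicate 2. CTSB, PPT1 and WIPI1 passed with hairpin 2 in all 6 such fits of SKNO1. By a rule given below, replicate numbers were taken to pair scramble with hairpin 1 in MOLM-13 and MV411. They were also taken to pair scramble with hairpin 2 in MV411, where the pairing was less clear. With the number as a block, hairpin 1 gave 4 higher members in MOLM-13, and 18 higher and 1 lower in MV411.

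Markers of monocytes and macrophages and genes of proliferation were counted in the same comparisons. The summed level of 12 monocyte and macrophage markers was 3677, 1134 and 641 CPM in scramble replicates 1, 2 and 3 of MOLM-13, 3324 to 6077 CPM with hairpin 1 and 1184 to 5482 CPM with hairpin 2. In MV411 it was 585 to 1054 CPM with scramble, 893 to 1256 CPM with hairpin 1 and 1586 to 2263 CPM with hairpin 2, and in SKNO1 39.7 to 58.6, 33.6 to 50.7 and 54.3 to 75.3 CPM. Of these markers 3 of 10 rose with either hairpin in MOLM-13, 1 of 9 rose and 1 fell with hairpin 1 and 8 of 9 rose with hairpin 2 in MV411, and 0 of 8 and 1 of 8 rose in SKNO1. The shares of all genes that rose with hairpins 1 and 2 were 2.13% and 3.39% in MOLM-13, 2.37% and 8.38% in MV411, and 0.255% and 5.54% in SKNO1. CD163 was at 0 in every MV411 library, and MPEG1 and CYBB were at 0 in the SKNO1 scramble libraries. CD68, one of the 12, is itself a lysosomal protein. Of 6 proliferation genes, 5 fell with each hairpin in MOLM-13 and MV411, and 0 and 3 fell with hairpins 1 and 2 in SKNO1, against 4.25% and 6.03% of all genes in MOLM-13, 4.13% and 10.2% in MV411, and 0.277% and 5.69% in SKNO1. Summed over 8 genes each, lymphoid markers reached at most 52.6 CPM in any library, erythroid and megakaryocytic markers 60.2 CPM, and epithelial and fibroblast markers 18.4 CPM. The part of these markers in the changes of the members was not tested. In bulk RNA, more cells of a type and more RNA per cell cannot be told apart.

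**Figure D2:**
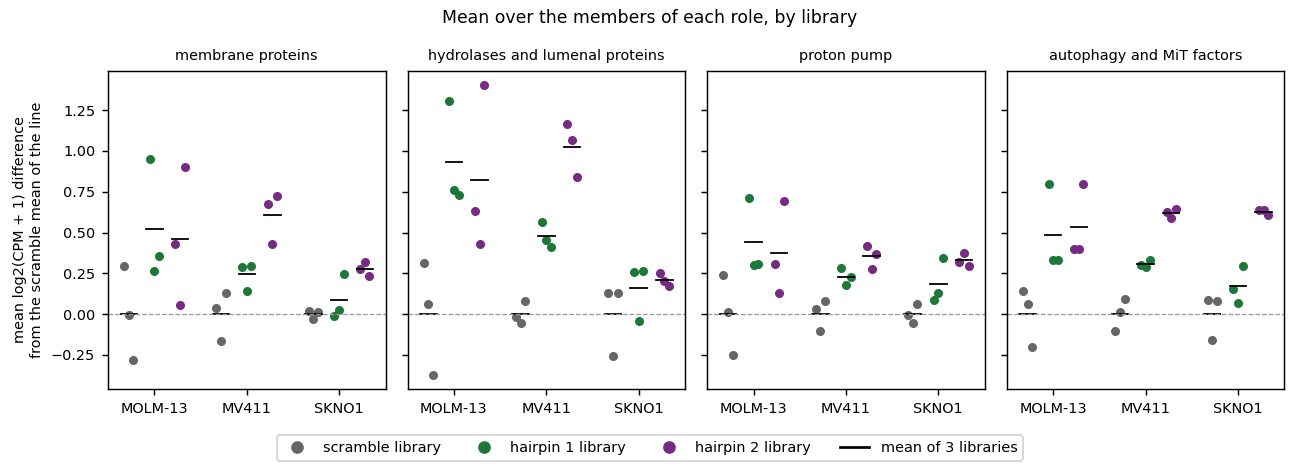
Mean difference in log2(CPM + 1) from the scramble mean of the line over the members of each role (vertical axis), for every library of each line. Points are libraries and bars the mean of 3 libraries. Over all 48 members the hairpin 2 libraries of MV411 lie between 0.71 and 0.87 and those of SKNO1 between 0.28 and 0.34, while those of MOLM-13 spread from 0.32 to 1.10.

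Of 7 lysosomal membrane proteins tested, LAMP1, SCARB2, LAPTM5 and NPC1 rose with hairpin 2 in MV411 (median of the 7, 0.62) and LAPTM5 with hairpin 1 (0.17). In MOLM-13, edgeR called 0 of the 7 with either hairpin (medians 0.58 and 0.55), with 1 and 3 higher at an unadjusted p under 0.05 and 0 by DESeq2. In SKNO1 it also called 0 (0.43 and 0.42), with 4 higher and 2 lower for hairpin 1 and 5 higher for hairpin 2 at an unadjusted p under 0.05. DESeq2 there called 2 higher and 1 lower, and 4 higher. LAMP1 (ENSG00000185896, chromosome 13, 113297241 to 113323672, plus strand; GENCODE 29 on GRCh38, as for all genes here), a glycoprotein that lines the lysosomal membrane, is the gene with 5 E-box cores upstream. LAMP1 in MOLM-13 stood at 205, 129 and 120.5 CPM with scramble, 343, 160.2 and 175 CPM with hairpin 1 and 175, 177 and 306 CPM with hairpin 2. LAMP1 in MV411 stood at 98.0, 80.3 and 96.8 CPM with scramble, 137, 113 and 111 CPM with hairpin 1 and 187, 188 and 181 CPM with hairpin 2. LAMP1 in SKNO1 stood at 83.9, 80.4 and 88.9 CPM with scramble, 107, 92.8 and 143 CPM with hairpin 1 and 116, 116 and 131 CPM with hairpin 2. In MV411 and SKNO1 each knockdown library lay above every scramble library, whereas in MOLM-13 the groups overlapped. LAMP1 rose with hairpin 2 in MV411, by 0.99 ± 0.14 (adjusted p = 0.00091). With hairpin 1 in MV411 its change was 0.38 ± 0.14 (adjusted p = 0.14) and did not pass the test. In SKNO1 it was 0.43 (adjusted p = 0.24) with hairpin 1 and 0.51 (adjusted p = 0.078) with hairpin 2. The latter passed by DESeq2 (adjusted p = 0.043) and with replicate numbers as a block (adjusted p = 0.049).

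LAPTM5, a lysosomal membrane protein of blood cells (chromosome 1, 30732469 to 30757820, minus strand), was the most abundant member per kb in the scramble libraries of MOLM-13 and MV411. LAPTM5 in MOLM-13 stood at 462, 344 and 219 CPM with scramble, 767, 466 and 537 CPM with hairpin 1 and 591, 354 and 816 CPM with hairpin 2. LAPTM5 in MV411 stood at 319.9, 280.3 and 335 CPM with scramble, 463, 429 and 460.0 CPM with hairpin 1 and 589, 529 and 618 CPM with hairpin 2. LAPTM5 in SKNO1 stood at 92.8, 79.3 and 97.7 CPM with scramble, 135, 109 and 131 CPM with hairpin 1 and 121, 124 and 118 CPM with hairpin 2. Scramble and hairpin 1 libraries did not overlap in any line, nor did scramble and hairpin 2 libraries in MV411 and SKNO1. The rise passed the test in MV411, by 0.52 ± 0.13 (adjusted p = 0.04) with hairpin 1 and 0.87 ± 0.13 (adjusted p = 0.0014) with hairpin 2. The call for hairpin 1 was lost without scramble replicate 1, 2 or 3 or hairpin 1 replicate 1, 2 or 3 (adjusted p 0.081 to 0.19). In MOLM-13 the change was 0.79 (adjusted p = 0.2) with hairpin 1 and 0.80 (adjusted p = 0.15) with hairpin 2.

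SCARB2, which carries glucocerebrosidase to the lysosome (chromosome 4, 76158733 to 76234536, minus strand), lay lower with hairpin 1 than with scramble in SKNO1. SCARB2 in MOLM-13 stood at 11.6, 13.4 and 9.68 CPM with scramble, 19.2, 15.5 and 12.6 CPM with hairpin 1 and 8.98, 12.3 and 23.1 CPM with hairpin 2. SCARB2 in MV411 stood at 17.4, 14.2 and 17.8 CPM with scramble, 15.3, 19.2 and 20.2 CPM with hairpin 1 and 35.0, 20.9 and 39.99 CPM with hairpin 2. SCARB2 in SKNO1 stood at 30.7, 28.4 and 28.3 CPM with scramble, 13.7, 18.02 and 20.2 CPM with hairpin 1 and 26.9, 28.6 and 25.9 CPM with hairpin 2. The rise with hairpin 2 in MV411 was 0.93 ± 0.22 (adjusted p = 0.013), a call lost without hairpin 2 replicate 1 (adjusted p = 0.063). In SKNO1 every hairpin 1 library lay below every scramble library, and the change was -0.76 ± 0.17 (adjusted p = 0.074), which did not pass the test. It did pass by DESeq2 (adjusted p = 0.0045), without the low-count filter (adjusted p = 0.025) and with replicate numbers as a block (adjusted p = 0.038).

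NPC1, which exports cholesterol from the lysosome (chromosome 18, 23506184 to 23586898, minus strand), stood at 20.3 to 31.5 CPM in the 9 scramble libraries. NPC1 in MOLM-13 stood at 25.6, 24.8 and 25.6 CPM with scramble, 37.7, 27.9 and 30.04 CPM with hairpin 1 and 29.6, 29.9 and 44.3 CPM with hairpin 2. NPC1 in MV411 stood at 31.1, 25.4 and 31.5 CPM with scramble, 31.3, 27 and 31.9 CPM with hairpin 1 and 44.8, 41.4 and 45.4 CPM with hairpin 2. NPC1 in SKNO1 stood at 22.4, 20.5 and 20.3 CPM with scramble, 25.7, 19.9 and 24.7 CPM with hairpin 1 and 31.4, 28.1 and 27.4 CPM with hairpin 2. The hairpin 2 libraries lay above the scramble libraries in each line. The rise passed the test in MV411, by 0.56 ± 0.13 (adjusted p = 0.015), and the call was lost without hairpin 2 replicate 1 (adjusted p = 0.067). In SKNO1 the change was 0.45 (adjusted p = 0.095), which passed by DESeq2 (adjusted p = 0.032). RMC1, whose exons overlap 6.0% of those of NPC1, rose there by 1.12 (adjusted p = 0.0059). Counts of RMC1 were 60.13% of those of NPC1, and reads of the overlap may be shared between them.

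LAMP2, CD63 and the calcium channel MCOLN1 passed the test in none of the 6 comparisons. LAMP2 ranged from -0.64 to 0.62, CD63 from 0.17 to 0.63 and MCOLN1 from -0.17 to 0.65 on the log2 scale. MCOLN1, one of the 3 genes with the long palindrome, was closest with hairpin 2 in SKNO1, at 0.56 (adjusted p = 0.08).

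The lumenal proteins, the largest role, held most of the calls except with hairpin 2 in SKNO1. Of the 24 tested in MOLM-13, 6 rose with hairpin 1 and 8 with hairpin 2 (medians 1.00 and 0.86). In MV411, 7 of 24 rose and 1 fell with hairpin 1 (0.43), and 20 rose and 1 fell with hairpin 2 (0.97). In SKNO1, 0 of 25 rose and 1 fell with hairpin 1 (0.19), and 4 rose and 1 fell with hairpin 2 (0.26). For hairpin 1 in SKNO1, 4 were higher and 2 lower at an unadjusted p under 0.05, and DESeq2 called 3 higher and 1 lower. The largest changes that passed the test in both hairpins of MOLM-13 and of MV411 were those of FUCA1 and PSAP.

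PSAP (ENSG00000197746, chromosome 10, 71816298 to 71851375, minus strand) encodes prosaposin, which is cut into the saposins that help hydrolases reach sphingolipids. PSAP in MOLM-13 stood at 344, 252 and 163 CPM with scramble, 1052, 608 and 672 CPM with hairpin 1 and 581, 656 and 1480 CPM with hairpin 2. PSAP in MV411 stood at 109.8, 141 and 160.2 CPM with scramble, 378, 295 and 372 CPM with hairpin 1 and 688, 817 and 598 CPM with hairpin 2. PSAP in SKNO1 stood at 613, 369 and 605 CPM with scramble, 901, 500.0 and 652 CPM with hairpin 1 and 824, 748 and 687 CPM with hairpin 2. In MOLM-13 and MV411 no knockdown library reached down to a scramble library, and in MV411 the hairpin 2 libraries also lay above those of hairpin 1. PSAP rose in MOLM-13 by 1.62 ± 0.39 (adjusted p = 0.035) with hairpin 1 and 1.85 ± 0.39 (adjusted p = 0.019) with hairpin 2. It rose in MV411 by 1.34 ± 0.19 (adjusted p = 0.0038) and 2.34 ± 0.20 (adjusted p = 0.00016). In SKNO1, whose scramble libraries lay above those of the other lines, the changes were 0.36 (adjusted p = 0.44) and 0.50 (adjusted p = 0.18). In MOLM-13 the call for hairpin 1 was lost with the replicate block (1.60, adjusted p = 0.054), and without scramble replicate 2 or 3 or hairpin 1 replicate 1, 2 or 3 (adjusted p 0.066 to 0.14), and that for hairpin 2 without scramble replicate 2 or 3 (adjusted p 0.078 to 0.082).

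FUCA1 (chromosome 1, 23845077 to 23868294, minus strand), a fucosidase, started from a low level in SKNO1. FUCA1 in MOLM-13 stood at 34.8, 18.7 and 14.7 CPM with scramble, 158, 63.6 and 55.8 CPM with hairpin 1 and 78.6, 39.8 and 126 CPM with hairpin 2. FUCA1 in MV411 stood at 26.1, 20.2 and 19.6 CPM with scramble, 62.5, 45.5 and 32.8 CPM with hairpin 1 and 108, 68.9 and 66.1 CPM with hairpin 2. FUCA1 in SKNO1 stood at 1.91, 1.90 and 1.63 CPM with scramble, 1.78, 2.26 and 3.55 CPM with hairpin 1 and 3.36, 3.73 and 2.95 CPM with hairpin 2. Scramble and knockdown libraries did not overlap in MOLM-13 or MV411 for either hairpin, or in SKNO1 for hairpin 2. FUCA1 rose in MOLM-13 by 2.03 ± 0.51 (adjusted p = 0.04) with hairpin 1 and 1.86 ± 0.50 (adjusted p = 0.045) with hairpin 2. It rose in MV411 by 1.08 ± 0.25 (adjusted p = 0.029) and 1.86 ± 0.26 (adjusted p = 0.00091), and in SKNO1 with hairpin 2 by 0.87 ± 0.26 (adjusted p = 0.048). The SKNO1 call was lost without any 1 of the 6 libraries (adjusted p 0.079 to 0.17). The MOLM-13 calls were lost without scramble replicate 2 or 3 or hairpin 1 replicate 1, 2 or 3 (adjusted p 0.053 to 0.16) for hairpin 1 and without scramble replicate 2 or 3 or hairpin 2 replicate 1 or 3 (adjusted p 0.076 to 0.16) for hairpin 2. The MV411 call for hairpin 1 was lost without scramble replicate 2 or 3 or hairpin 1 replicate 1 or 2 (adjusted p 0.078 to 0.14).

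MANBA (chromosome 4, 102630770 to 102760994, minus strand) is a mannosidase that takes part in the breakdown of glycoprotein sugars. MANBA in MOLM-13 stood at 41.4, 29.3 and 39.0 CPM with scramble, 92.3, 72.8 and 75.6 CPM with hairpin 1 and 78.2, 67.2 and 91.7 CPM with hairpin 2. MANBA in MV411 stood at 49.3, 41.7 and 43.5 CPM with scramble, 71.1, 69.2 and 67.5 CPM with hairpin 1 and 100.4, 83.3 and 80.9 CPM with hairpin 2. MANBA in SKNO1 stood at 74.3, 49.5 and 69.0 CPM with scramble, 52.9, 59.8 and 61.6 CPM with hairpin 1 and 88.1, 81.6 and 76.5 CPM with hairpin 2. In MOLM-13 and MV411 all knockdown libraries exceeded all scramble libraries. It rose in MOLM-13 by 1.13 ± 0.18 (adjusted p = 0.0068) with hairpin 1 and 1.13 ± 0.18 (adjusted p = 0.0064) with hairpin 2, and kept both calls without any 1 library. It rose in MV411 by 0.62 ± 0.13 (adjusted p = 0.018) with hairpin 1 and 0.96 ± 0.13 (adjusted p = 0.00084) with hairpin 2. The first of these was lost without scramble replicate 3 or hairpin 1 replicate 1, 2 or 3 (adjusted p 0.062 to 0.1). In SKNO1 the hairpin 1 libraries overlapped those of scramble, with a change of -0.15 (adjusted p = 0.71), and hairpin 2 gave 0.34 (adjusted p = 0.22).

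CTSL (chromosome 9, 87725519 to 87731393, plus strand), the cysteine protease cathepsin L, had the largest change of any member. CTSL in MOLM-13 stood at 6.65, 10.3 and 6.65 CPM with scramble, 24.9, 13.1 and 14.9 CPM with hairpin 1 and 8.65, 15.9 and 45.3 CPM with hairpin 2. CTSL in MV411 stood at 0.333, 0.628 and 0.336 CPM with scramble, 0.427, 0.406 and 0.914 CPM with hairpin 1 and 5.34, 4.18 and 5.24 CPM with hairpin 2. CTSL in SKNO1 stood at 1.81, 0.808 and 1.92 CPM with scramble, 1.26, 0.740 and 1.01 CPM with hairpin 1 and 1.88, 1.397 and 1.84 CPM with hairpin 2. Only the hairpin 2 libraries of MV411 left the range of the other MV411 libraries, and CTSL rose there by 3.46 ± 0.36 (adjusted p = 0.00027). Even so, its level in those libraries was below that in every MOLM-13 library. In MOLM-13 the change was 1.16 (adjusted p = 0.2) with hairpin 1 and 1.57 (adjusted p = 0.076) with hairpin 2, and in SKNO1 -0.60 and 0.17. The hairpin 2 change in MOLM-13 passed by DESeq2 (adjusted p = 0.012).

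CTSZ (chromosome 20, 58995185 to 59007247, minus strand), cathepsin Z, was called in opposite directions by the hairpins. CTSZ in MOLM-13 stood at 48.2, 37.8 and 29.6 CPM with scramble, 130.2, 29.7 and 32.9 CPM with hairpin 1 and 25.6, 52.2 and 144 CPM with hairpin 2. CTSZ in MV411 stood at 76.7, 64.5 and 75.3 CPM with scramble, 41.8, 47.1 and 41.3 CPM with hairpin 1 and 180.3, 166 and 172 CPM with hairpin 2. CTSZ in SKNO1 stood at 38.2, 34.7 and 37.9 CPM with scramble, 19.1, 14.4 and 21.2 CPM with hairpin 1 and 60.2, 61.5 and 62.9 CPM with hairpin 2. In MV411 and SKNO1 the hairpin 1 libraries lay below all scramble libraries and the hairpin 2 libraries above them. CTSZ fell with hairpin 1 in MV411, by 0.74 ± 0.12 (adjusted p = 0.0069), and in SKNO1, by 1.03 ± 0.17 (adjusted p = 0.03). It rose with hairpin 2 in MV411, by 1.24 ± 0.13 (adjusted p = 0.00024), and in SKNO1, by 0.73 ± 0.17 (adjusted p = 0.017). In MOLM-13 it spread over all groups, with changes of 0.74 (adjusted p = 0.55) and 0.95 (adjusted p = 0.36). In a fit of all 27 libraries, which pools the spread of the 3 lines, none of the 4 calls passed. The adjusted p was then 0.47 and 0.061 for hairpins 1 and 2 in MV411, and 0.28 and 0.34 in SKNO1. The calls of SKNO1 were lost without scramble replicate 1 or 3 or hairpin 1 replicate 3 (adjusted p 0.065 to 0.2) for hairpin 1 and without scramble replicate 1 or 3 or hairpin 2 replicate 1, 2 or 3 (adjusted p 0.051 to 0.072) for hairpin 2, and that of hairpin 1 in MV411 without hairpin 1 replicate 1 (adjusted p = 0.057).

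PPT1 (ENSG00000131238, chromosome 1, 40071461 to 40097727, minus strand), a thioesterase that removes palmitate from proteins, was the lumenal gene that fell with hairpin 2. PPT1 in MOLM-13 stood at 129, 122.9 and 114 CPM with scramble, 60.3, 134 and 134 CPM with hairpin 1 and 119.5, 52.9 and 68.2 CPM with hairpin 2. PPT1 in MV411 stood at 122, 95.6 and 123.4 CPM with scramble, 118, 124 and 128 CPM with hairpin 1 and 53.1, 49.7 and 73.8 CPM with hairpin 2. PPT1 in SKNO1 stood at 134, 148 and 127 CPM with scramble, 104, 146 and 152 CPM with hairpin 1 and 32.7, 28.2 and 26.2 CPM with hairpin 2. The hairpin 2 libraries of MV411 and SKNO1 lay below all other libraries of their line. PPT1 fell by 0.97 ± 0.17 (adjusted p = 0.0027) in MV411 and by 2.24 ± 0.19 (adjusted p = 5e-05) in SKNO1. In MOLM-13 the change was -0.58 (adjusted p = 0.28) with hairpin 2. CAP1, on the opposite strand, overlaps 23.4% of the exons of PPT1 and had 205.76% of its counts. CAP1 changed by -0.04 (adjusted p = 0.9) in MV411 and 0.16 (adjusted p = 0.72) in SKNO1 with hairpin 2.

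**Figure D3:**
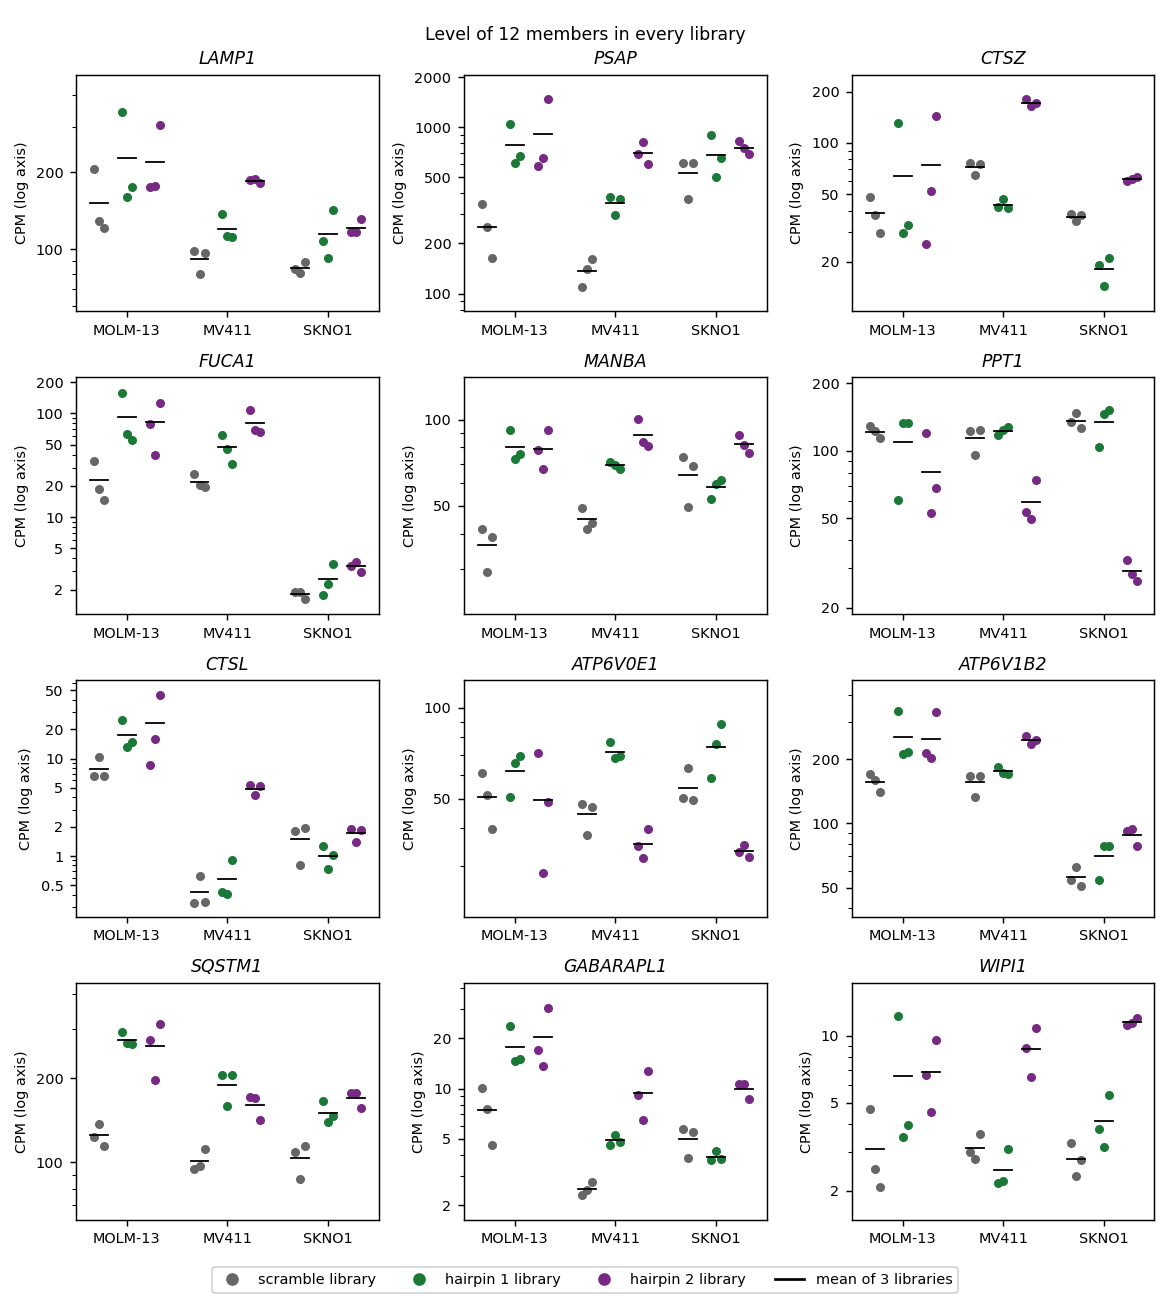
Level of 12 members in every library, in CPM on a log axis, by line. Points are libraries, coloured by hairpin, and bars the mean of 3 libraries. PPT1 in SKNO1 lies at 26.2 to 32.7 CPM with hairpin 2 and at 104 CPM or more in the other libraries of the line, and CTSZ in SKNO1 lies below scramble with hairpin 1 and above it with hairpin 2.

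Among the other lumenal proteins, CTSD, the aspartic protease cathepsin D, rose in MOLM-13 by 1.53 ± 0.39 (adjusted p = 0.044) and 1.55 ± 0.39 (adjusted p = 0.035) with hairpins 1 and 2, and in MV411 with hairpin 2 by 1.11 ± 0.21 (adjusted p = 0.0042). AC068580.4 overlaps 41.7% of its exons with 0.59% of its counts. CTSB, the cysteine protease cathepsin B, rose with hairpin 2 in MV411, by 1.52 ± 0.14 (adjusted p = 0.00019), and in SKNO1, by 1.02 ± 0.16 (adjusted p = 0.0028), and kept both calls without any 1 library. GRN, the precursor of lysosomal granulins, rose with hairpin 2 in MOLM-13 by 1.46 ± 0.41 (adjusted p = 0.048) and with both hairpins in MV411, by 1.10 ± 0.20 (adjusted p = 0.0089) and 1.67 ± 0.20 (adjusted p = 0.00048). PLD3, a nuclease of the lysosome with the long palindrome in its promoter, rose in MV411 by 1.47 ± 0.23 (adjusted p = 0.0059) and 2.10 ± 0.24 (adjusted p = 0.00036). MAN2B1, another mannosidase, rose in MOLM-13 by 0.88 ± 0.20 (adjusted p = 0.029) and 0.72 ± 0.20 (adjusted p = 0.048) and in MV411 by 0.77 ± 0.18 (adjusted p = 0.029) and 0.67 ± 0.18 (adjusted p = 0.024). The sialidase NEU1 rose with hairpin 2 in MV411, by 1.06 ± 0.14 (adjusted p = 0.00081), and in SKNO1, by 0.72 ± 0.18 (adjusted p = 0.027). Of these calls, those in MOLM-13, those with hairpin 1 in MV411 other than PLD3, that of MAN2B1 with hairpin 2 in MV411 and that of NEU1 in SKNO1 were lost without at least 1 library.

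The remaining calls were in MOLM-13 and MV411, and several were lost when 1 of the 6 libraries was left out. GAA, which degrades glycogen, rose with hairpin 2 by 1.19 (adjusted p = 0.039) in MOLM-13 and 1.49 (adjusted p = 0.023) in MV411, with the calls lost in 5 and 4 of 6 such fits. ASAH1, a ceramidase, rose with hairpin 1 by 1.06 (adjusted p = 0.031) in MOLM-13 and with hairpin 2 by 0.68 (adjusted p = 0.019) in MV411, with the calls lost in 5 and 3. HEXA, a hexosaminidase, rose with hairpin 2 by 0.86 (adjusted p = 0.05) and 0.52 (adjusted p = 0.018) in these lines, with the calls lost in 5 and 3. GM2A, the activator of ganglioside breakdown, rose with both hairpins of MV411, by 0.67 (adjusted p = 0.012) and 0.92 (adjusted p = 0.00097), and the call for hairpin 1 was lost in 2. With hairpin 2 in MV411 the carboxypeptidase CTSA rose by 1.26 (adjusted p = 0.00087), the protease CTSS by 0.98 (adjusted p = 0.00076) and the lipase LIPA by 0.94 (adjusted p = 0.0031), and these passed in all 6 fits. The cholesterol carrier NPC2 rose there by 0.84 (adjusted p = 0.016) and the peptidase TPP1 by 0.67 (adjusted p = 0.039), with the call lost in 1 and 5 fits. Over the losses of GAA, ASAH1, HEXA, GM2A, NPC2 and TPP1 the adjusted p was 0.052 to 0.19. CTSC, CTSH and GLA passed the test in none of the 6 comparisons, and neither did LGMN in the 2 in which it was tested.

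Pump subunits had few calls, and with hairpin 2 in SKNO1 ATP6V0E1 fell while ATP6V0C and ATP6V1B2 rose. Of 8 tested, 0 rose with hairpin 1 and 1 with hairpin 2 in MOLM-13 (medians 0.55 and 0.42), 1 and 3 in MV411 (0.20 and 0.48), and 0 and 2 in SKNO1 (0.36 and 0.54), where 1 fell with hairpin 2. Where edgeR called 0 higher, 3 were higher at an unadjusted p under 0.05 in MOLM-13 and 1 in SKNO1, and DESeq2 called 1 and 0. ATP6V0A1 (chromosome 17, 42458844 to 42522611, plus strand) is a subunit of the membrane part through which protons pass. ATP6V0A1 in MOLM-13 stood at 40.6, 35.3 and 29.98 CPM with scramble, 58.3, 45.6 and 52.4 CPM with hairpin 1 and 50.99, 63.3 and 60.0 CPM with hairpin 2. ATP6V0A1 in MV411 stood at 16.5, 16.9 and 16.3 CPM with scramble, 23.7, 20.2 and 20.1 CPM with hairpin 1 and 25.8, 24.6 and 24.4 CPM with hairpin 2. ATP6V0A1 in SKNO1 stood at 14.8, 11.3 and 15.7 CPM with scramble, 21.3, 15.7 and 17.8 CPM with hairpin 1 and 21.2, 22.1 and 19.4 CPM with hairpin 2. Except for hairpin 1 in SKNO1, knockdown libraries lay above all scramble libraries of their line. The rise passed the test with hairpin 2 in MOLM-13, by 0.74 ± 0.17 (adjusted p = 0.023), and in MV411, by 0.57 ± 0.12 (adjusted p = 0.009). The MOLM-13 call was lost without scramble replicate 2 or 3 or hairpin 2 replicate 2 (adjusted p 0.055 to 0.11).

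ATP6V1B2 is a subunit of the part of the pump that splits ATP. ATP6V1B2 in MOLM-13 stood at 171, 159 and 141 CPM with scramble, 335, 212 and 216 CPM with hairpin 1 and 214, 202 and 334 CPM with hairpin 2. ATP6V1B2 in MV411 stood at 166, 134 and 168 CPM with scramble, 184, 172 and 169.9 CPM with hairpin 1 and 258, 236 and 245 CPM with hairpin 2. ATP6V1B2 in SKNO1 stood at 54.5, 62.3 and 50.99 CPM with scramble, 54.1, 78.01 and 78.1 CPM with hairpin 1 and 92.2, 93.8 and 78.04 CPM with hairpin 2. Its hairpin 2 libraries lay above scramble in every line. It rose by 0.64 ± 0.13 (adjusted p = 0.0073) in MV411 and by 0.64 ± 0.18 (adjusted p = 0.042) in SKNO1. The SKNO1 call was lost without scramble replicate 1 or 3 or hairpin 2 replicate 1, 2 or 3 (adjusted p 0.085 to 0.18).

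ATP6V0C (chromosome 16, 2513870 to 2520218, plus strand), the ring subunit that carries protons, was lower in SKNO1 than in the other lines. ATP6V0C in MOLM-13 stood at 13.6, 14.2 and 8.58 CPM with scramble, 19.9, 12.7 and 10.1 CPM with hairpin 1 and 13.9, 14.7 and 15.5 CPM with hairpin 2. ATP6V0C in MV411 stood at 11.2, 13.2 and 13.4 CPM with scramble, 13.7, 15.9 and 14.5 CPM with hairpin 1 and 18.7, 21.8 and 14.8 CPM with hairpin 2. ATP6V0C in SKNO1 stood at 3.53, 3.01 and 5.45 CPM with scramble, 7.28, 4.17 and 5.87 CPM with hairpin 1 and 7.14, 6.65 and 8.56 CPM with hairpin 2. Scramble and hairpin 2 libraries did not overlap in MV411 or SKNO1. The rise with hairpin 2 in SKNO1 was 0.89 ± 0.26 (adjusted p = 0.043), a call lost without scramble replicate 1 or 2 or hairpin 2 replicate 1, 2 or 3 (adjusted p 0.09 to 0.16). In MV411 the change with hairpin 2 was 0.53 (adjusted p = 0.054), and with the replicate block it was 0.52 and passed (adjusted p = 0.028). Exons of AC093525.2 overlap 57.5% of those of ATP6V0C but had 2.4% of its counts.

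ATP6V0E1 (chromosome 5, 172983757 to 173035445, plus strand), a small membrane subunit, was called higher with one hairpin and lower with the other. ATP6V0E1 in MOLM-13 stood at 61.0, 51.5 and 39.6 CPM with scramble, 50.8, 65.5 and 69.3 CPM with hairpin 1 and 70.8, 28.4 and 48.9 CPM with hairpin 2. ATP6V0E1 in MV411 stood at 48.2, 38.0 and 46.9 CPM with scramble, 76.9, 68.3 and 69.4 CPM with hairpin 1 and 34.8, 31.8 and 39.7 CPM with hairpin 2. ATP6V0E1 in SKNO1 stood at 50.1, 63.2 and 49.4 CPM with scramble, 58.6, 75.8 and 88.1 CPM with hairpin 1 and 33.3, 35.3 and 32.1 CPM with hairpin 2. It rose with hairpin 1 in MV411, by 0.68 ± 0.14 (adjusted p = 0.015), and fell with hairpin 2 in SKNO1, by 0.71 ± 0.19 (adjusted p = 0.029). With hairpin 1 in SKNO1 the change was 0.44 (adjusted p = 0.25), and with hairpin 2 in MV411 -0.35 (adjusted p = 0.11), or -0.34 (adjusted p = 0.046) with the replicate block. The MV411 call was lost without scramble replicate 3 or hairpin 1 replicate 1, 2 or 3 (adjusted p 0.053 to 0.1), and the SKNO1 call without any 1 of the 6 libraries (adjusted p 0.06 to 0.1).

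ATP6AP1, an accessory subunit, rose with hairpin 2 in MV411, by 0.51 ± 0.12 (adjusted p = 0.017), a call lost without scramble replicate 1 or 2 or hairpin 2 replicate 1 (adjusted p 0.052 to 0.061). ATP6V0D1, ATP6V1A and ATP6V1H passed the test in none of the 6 comparisons, with ranges of -0.16 to 0.67, -0.64 to 0.54 and -0.14 to 0.26. ATP6V0D2, a subunit known from osteoclasts and macrophages, had at most 4.0 expected counts in any library and was listed at 0 in every SKNO1 library.

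Autophagy genes and MiT factors rose mainly with hairpin 2 in MV411 and SKNO1. Of 10 tested in MOLM-13, 1 rose with hairpin 1 and 2 with hairpin 2 (medians 0.34 and 0.55). In MV411, 2 of 10 rose with hairpin 1 and 6 with hairpin 2 (0.18 and 0.52). In SKNO1, 0 of 9 rose with hairpin 1 and 6 with hairpin 2 (0.20 and 0.77). For hairpin 1 in SKNO1, 3 were higher at an unadjusted p under 0.05 and 2 by DESeq2.

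SQSTM1 (ENSG00000161011, chromosome 5, 179806398 to 179838078, plus strand) encodes p62, the receptor that carries ubiquitin-marked cargo into autophagosomes. SQSTM1 in MOLM-13 stood at 123.2, 137 and 114 CPM with scramble, 292, 268 and 265 CPM with hairpin 1 and 274, 197 and 312 CPM with hairpin 2. SQSTM1 in MV411 stood at 94.4, 97.2 and 112 CPM with scramble, 205, 158 and 206 CPM with hairpin 1 and 171, 170.4 and 141 CPM with hairpin 2. SQSTM1 in SKNO1 stood at 108, 87.1 and 114 CPM with scramble, 165, 139 and 146 CPM with hairpin 1 and 178, 176 and 156 CPM with hairpin 2. In each line every knockdown library, of either hairpin, lay above every scramble library. MRNIP overlaps 20.7% of the exons of SQSTM1 with 9.59% of its counts. SQSTM1 rose by 1.13 ± 0.18 (adjusted p = 0.0069) and 1.08 ± 0.18 (adjusted p = 0.0077) in MOLM-13 and by 0.90 ± 0.15 (adjusted p = 0.0073) and 0.65 ± 0.15 (adjusted p = 0.014) in MV411 with hairpins 1 and 2. It rose in SKNO1 with hairpin 2, by 0.71 ± 0.16 (adjusted p = 0.014), while hairpin 1 gave 0.54 ± 0.16 (adjusted p = 0.13) and did not pass the test. By DESeq2 the hairpin 1 change in SKNO1 did pass (0.54, adjusted p = 0.015). Both calls of hairpin 2 outside MOLM-13 were lost in some fits, in MV411 without scramble replicate 1 or hairpin 2 replicate 1 (adjusted p 0.052 to 0.067) and in SKNO1 without scramble replicate 1 or hairpin 2 replicate 1 or 2 (adjusted p 0.056 to 0.076).

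GABARAPL1 (chromosome 12, 10212458 to 10223130, plus strand), a member of the ATG8 family that is attached to autophagosome membranes, parted the hairpins in SKNO1. GABARAPL1 in MOLM-13 stood at 10.1, 7.58 and 4.57 CPM with scramble, 23.8, 14.6 and 14.97 CPM with hairpin 1 and 16.9, 13.6 and 30.5 CPM with hairpin 2. GABARAPL1 in MV411 stood at 2.30, 2.49 and 2.77 CPM with scramble, 4.604, 5.28 and 4.79 CPM with hairpin 1 and 9.13, 6.51 and 12.7 CPM with hairpin 2. GABARAPL1 in SKNO1 stood at 5.71, 3.82 and 5.49 CPM with scramble, 3.74, 4.21 and 3.79 CPM with hairpin 1 and 10.6, 10.7 and 8.70 CPM with hairpin 2. In MOLM-13 and MV411 all knockdown libraries exceeded all scramble libraries, and in SKNO1 those of hairpin 2 did. It rose with hairpin 2 in all lines, by 1.47 ± 0.36 (adjusted p = 0.031) in MOLM-13, 1.88 ± 0.23 (adjusted p = 0.00053) in MV411 and 0.98 ± 0.19 (adjusted p = 0.008) in SKNO1. With hairpin 1 it rose in MV411, by 0.94 ± 0.23 (adjusted p = 0.036), but this call was lost without any 1 of the 6 libraries (adjusted p 0.081 to 0.13). In SKNO1 hairpin 1 gave -0.36 (adjusted p = 0.37). The hairpin 2 call was lost without scramble replicate 2 or 3 or hairpin 2 replicate 3 (adjusted p 0.071 to 0.11) in MOLM-13 and without hairpin 2 replicate 2 (adjusted p = 0.055) in SKNO1.

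WIPI1 (chromosome 17, 68420948 to 68457513, minus strand), which binds the phosphoinositide of forming autophagosomes, was low in all lines. WIPI1 in MOLM-13 stood at 4.69, 2.499 and 2.08 CPM with scramble, 12.3, 3.49 and 3.95 CPM with hairpin 1 and 6.64, 4.53 and 9.54 CPM with hairpin 2. WIPI1 in MV411 stood at 3.00, 2.78 and 3.62 CPM with scramble, 2.17, 2.22 and 3.09 CPM with hairpin 1 and 8.77, 6.51 and 10.9 CPM with hairpin 2. WIPI1 in SKNO1 stood at 3.30, 2.34 and 2.74 CPM with scramble, 3.82, 3.15 and 5.41 CPM with hairpin 1 and 11.2, 11.4 and 12.02 CPM with hairpin 2. The hairpin 2 libraries of MV411 and SKNO1 lay above all other libraries of their line. WIPI1 rose there by 1.45 ± 0.23 (adjusted p = 0.0019) and 2.04 ± 0.22 (adjusted p = 0.00035), and these calls did not depend on any 1 library. ARSG, on the opposite strand, overlaps 24.3% of the exons of WIPI1 and had 94.44% of its counts. ARSG changed by -0.52 (adjusted p = 0.045) in MV411 and by 1.29 (adjusted p = 0.02) in SKNO1 with hairpin 2, so the SKNO1 value of WIPI1 is uncertain as far as reads were shared.

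The MiT factors themselves differed. TFE3 (chromosome X, 49028726 to 49043486, minus strand) had similar levels in the scramble libraries of the 3 lines. TFE3 in MOLM-13 stood at 14.8, 12.4 and 9.58 CPM with scramble, 25.3, 12.6 and 12.8 CPM with hairpin 1 and 13.5, 20.1 and 21.1 CPM with hairpin 2. TFE3 in MV411 stood at 12.9, 13.9 and 13.7 CPM with scramble, 14.6, 13.1 and 11.7 CPM with hairpin 1 and 20.6, 24.1 and 21.1 CPM with hairpin 2. TFE3 in SKNO1 stood at 13.5, 9.43 and 13.3 CPM with scramble, 16.4, 11.2 and 12.8 CPM with hairpin 1 and 22.9, 20.6 and 18.6 CPM with hairpin 2. It rose with hairpin 2 in MV411, by 0.68 ± 0.14 (adjusted p = 0.0071), and in SKNO1, by 0.77 ± 0.19 (adjusted p = 0.025), with no overlap with scramble. The SKNO1 call was lost without any 1 of the 6 libraries (adjusted p 0.053 to 0.096). With hairpin 1 the changes were 0.46, -0.05 and 0.15 in MOLM-13, MV411 and SKNO1, and none passed the test.

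TFEB (chromosome 6, 41683978 to 41736259, minus strand) was measured well in MOLM-13 and MV411 only. TFEB in MOLM-13 stood at 5.76, 11.8 and 9.76 CPM with scramble, 11.7, 12.5 and 8.85 CPM with hairpin 1 and 4.09, 14.6 and 19.5 CPM with hairpin 2. TFEB in MV411 stood at 6.06, 9.66 and 8.62 CPM with scramble, 8.32, 9.75 and 9.48 CPM with hairpin 1 and 16.3, 17.1 and 11.8 CPM with hairpin 2. TFEB in SKNO1 stood at 0.588, 0.306 and 0.868 CPM with scramble, 0.471, 0.211 and 0.411 CPM with hairpin 1 and 0.547, 0.530 and 0.353 CPM with hairpin 2. It rose with hairpin 2 in MV411, by 0.87 ± 0.21 (adjusted p = 0.015), a call lost without hairpin 2 replicate 1 (adjusted p = 0.063) and in a fit of all 27 libraries (adjusted p = 0.13). In SKNO1 the changes were -0.71 (adjusted p = 0.43) and -0.31 (adjusted p = 0.69).

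MITF (chromosome 3, 69739435 to 69968337, plus strand) was expressed mainly in MOLM-13. MITF in MOLM-13 stood at 3.598, 4.596 and 4.75 CPM with scramble, 5.61, 4.69 and 3.38 CPM with hairpin 1 and 3.12, 3.84 and 5.48 CPM with hairpin 2. MITF in MV411 stood at 0.466, 0.386 and 0.466 CPM with scramble, 0.427, 0.344 and 0.221 CPM with hairpin 1 and 0.614, 0.197 and 0.437 CPM with hairpin 2. MITF in SKNO1 stood at 0.105, 0.153 and 0.222 CPM with scramble, 0.0524, 0.148 and 0.169 CPM with hairpin 1 and 0.167, 0.144 and 0.165 CPM with hairpin 2. It passed the test in none of the 4 comparisons in which it was tested, with values from -0.42 to 0.07.

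Of the other autophagy genes, MAP1LC3B, which encodes LC3B, rose with hairpin 2 in SKNO1, by 0.77 ± 0.16 (adjusted p = 0.0097). ULK1, the kinase that starts autophagy, also rose there, by 1.02 ± 0.21 (adjusted p = 0.011). UVRAG, a subunit of a lipid kinase complex, rose with hairpin 2 in MV411, by 0.39 ± 0.11 (adjusted p = 0.034). The MAP1LC3B call was lost without scramble replicate 1 or 3 or hairpin 2 replicate 3 (adjusted p 0.052 to 0.056), that of ULK1 without hairpin 2 replicate 2 or 3 (adjusted p 0.052 to 0.055) and that of UVRAG without scramble replicate 1, 2 or 3 or hairpin 2 replicate 1 (adjusted p 0.079 to 0.16). GABARAPL2 passed the test in none of the 6 comparisons and stayed between -0.14 and 0.20.

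The hairpins were then compared with each other within each line. In MOLM-13, 0 of 49 members and 0.0% of all genes passed the test in either direction (member median -0.02), with 0 members at an unadjusted p under 0.05 and 0 by DESeq2. In MV411, 14 members were higher and 2 lower with hairpin 2 than with hairpin 1, against 5.86% and 5.62% of all genes, with a member median of 0.38 and 0.01 for all genes. In SKNO1, 5 were higher and 2 lower, against 4.52% and 5.0%, with medians of 0.16 and 0.01. Mean CARM1 was lower with hairpin 2 than with hairpin 1 in each line, as given above. In MOLM-13, however, the libraries overlapped, at 2.85 to 5.82 CPM with hairpin 1 and 2.80 to 4.88 CPM with hairpin 2.

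The members that passed this test in both MV411 and SKNO1 were SCARB2, CTSZ, PPT1, ATP6V0E1, GABARAPL1 and WIPI1. CTSZ was higher with hairpin 2 by 1.98 ± 0.13 (adjusted p = 7.6e-05) in MV411 and 1.75 ± 0.17 (adjusted p = 0.00014) in SKNO1. PPT1 fell by 1.08 ± 0.17 (adjusted p = 0.0027) and 2.21 ± 0.19 (adjusted p = 6.8e-05) with hairpin 2 relative to hairpin 1. ATP6V0E1 likewise fell by 1.02 ± 0.14 (adjusted p = 0.0014) and 1.15 ± 0.19 (adjusted p = 0.0027). These differences of CTSZ, PPT1 and ATP6V0E1 passed the test without any 1 library. WIPI1 was higher by 1.79 ± 0.24 (adjusted p = 0.0013) and 1.49 ± 0.22 (adjusted p = 0.0015), also without any 1 library. GABARAPL1 was higher by 0.94 ± 0.23 (adjusted p = 0.022) and 1.35 ± 0.20 (adjusted p = 0.0014), and SCARB2 by 0.79 ± 0.22 (adjusted p = 0.039) and 0.65 ± 0.17 (adjusted p = 0.033). In MV411 the GABARAPL1 call was lost without hairpin 1 replicate 1, 2 or 3 or hairpin 2 replicate 1 or 3 (adjusted p 0.062 to 0.1), and the SCARB2 call was lost there without hairpin 1 replicate 1, 2 or 3 or hairpin 2 replicate 1 or 3 (adjusted p 0.086 to 0.17) and in SKNO1 without hairpin 2 replicate 1, 2 or 3 (adjusted p 0.076 to 0.12) and with abundant RNAs removed (adjusted p = 0.051).

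In MV411 alone, CTSL was higher by 3.06 ± 0.36 (adjusted p = 0.00087), CTSB by 1.13 ± 0.14 (adjusted p = 0.00096), PSAP by 1.00 ± 0.19 (adjusted p = 0.0068), LAMP1 by 0.61 ± 0.14 (adjusted p = 0.016) and TFE3 by 0.73 ± 0.14 (adjusted p = 0.0073). CTSA, CTSS, NEU1, NPC1 and ATP6V1B2 were higher by 0.76, 0.72, 0.57, 0.53 and 0.48. The LAMP1 call was lost without hairpin 1 replicate 2 or 3 or hairpin 2 replicate 1 (adjusted p 0.069 to 0.085). With 1 of the 6 libraries left out, the call of CTSA was lost in 3 fits (adjusted p 0.072 to 0.08), that of NEU1 in 4 (0.058 to 0.12), that of NPC1 in 5 (0.055 to 0.13) and that of ATP6V1B2 in 5 (0.062 to 0.16). In SKNO1, MAP1LC3B was higher by 0.55 ± 0.16 (adjusted p = 0.045), a call lost without hairpin 1 replicate 2 or 3 or hairpin 2 replicate 1, 2 or 3 (adjusted p 0.069 to 0.13). Whether the hairpin difference itself differed between the lines was not tested.

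The effect of hairpin 2 was compared between the lines with an interaction term, in the fit that holds the 27 libraries together and tested 50 members. Between MOLM-13 and MV411, 0 members passed, against 0.0188% of all genes higher and 0.0517% lower. At an unadjusted p under 0.05 there were 1 higher and 1 lower, and DESeq2 called 0. Between MOLM-13 and SKNO1, 1 was higher and 0 lower in MOLM-13, against 0.193% and 0.296%. Between MV411 and SKNO1, 2 were higher and 0 lower in MV411, against 0.376% and 0.55%.

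PPT1 was the member between MOLM-13 and SKNO1, with a difference of 1.62 ± 0.37 (adjusted p = 0.041), as it fell in SKNO1 and its change in MOLM-13 did not pass the test. CTSL and PSAP were those between MV411 and SKNO1, with differences of 3.31 ± 0.67 (adjusted p = 0.014) and 1.84 ± 0.44 (adjusted p = 0.04). The PPT1 and PSAP differences each passed in 2 of the 12 fits that left out 1 library, with adjusted p up to 0.13 and 0.12 in the others. Those 2 fits left out MOLM-13 hairpin 2 replicate 2 or 3 for PPT1, and MV411 hairpin 2 replicate 3 or SKNO1 scramble replicate 2 for PSAP. The CTSL difference was lost without MV411 scramble replicate 3 (3.15, adjusted p = 0.06). With the replicate block the PPT1 difference was 1.61 (adjusted p = 0.056). Over the roles, the median difference between MV411 and SKNO1 was 0.85 for lumenal proteins, 0.25 for membrane proteins, 0.01 for pump subunits and -0.05 for autophagy genes, against -0.01 for all genes.

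Levels before knockdown were compared in the scramble libraries, per kb of exon so that genes can be ranked. In MOLM-13 the highest were LAPTM5 at 104 CPM per kb, GRN at 86.4 and PSAP at 78.1. In MV411 they were LAPTM5 at 95.2, MAN2B1 at 43.6 and PSAP at 42.3, and in SKNO1 PSAP at 163, MAN2B1 at 52.8 and LAMP2 at 34.9. ATP6V0D2 and LGMN were the lowest in MOLM-13 and MV411. TFEB stood at 1.61, 1.44 and 0.104 CPM per kb and MITF at 0.601, 0.0612 and 0.0223 CPM per kb in MOLM-13, MV411 and SKNO1.

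**Figure D4:**
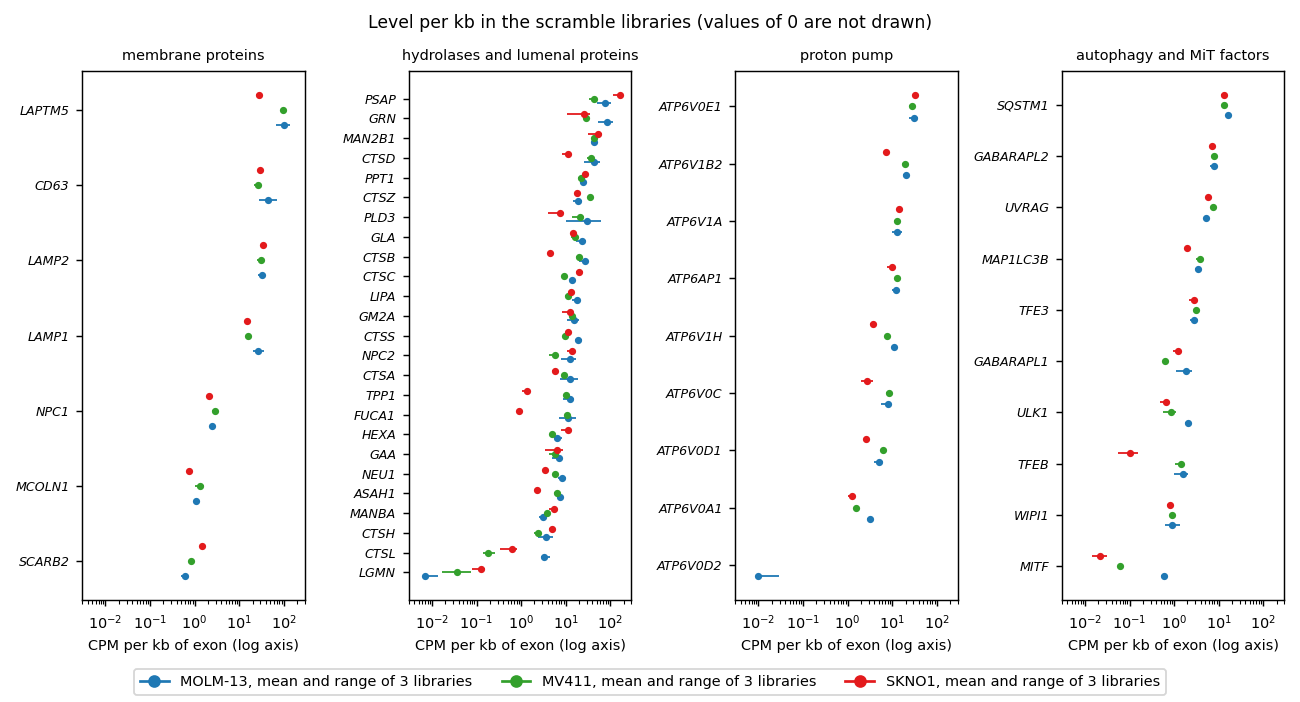
Level of the members in the scramble libraries of each line, in CPM per kb of exon on a log axis, by role. Points are means and lines the range of 3 libraries, and values of 0 are not drawn. PSAP lies at 163 CPM per kb in SKNO1 against 78.1 in MOLM-13 and 42.3 in MV411, and TFEB at 0.104 in SKNO1 against 1.61 and 1.44.

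Between the scramble libraries of MOLM-13 and MV411, 11 of 50 members were higher and 2 lower in MOLM-13, against 13.9% and 14.3% of all genes (medians 0.21 and -0.01). MITF was higher in MOLM-13 by 3.29 ± 0.35 (adjusted p = 6e-08) and CTSL by 4.15 ± 0.51 (adjusted p = 5.8e-07). LGMN, a protease that cuts after asparagine (chromosome 14, 92703807 to 92748702, minus strand), differed by -2.44 ± 0.84 (adjusted p = 0.031), but at levels of 0.0521, 0.0287 and 0 CPM against 0.0665, 0.290 and 0.0776 CPM. That is 0 to 2 counts per library in MOLM-13 and 2 to 12 in MV411, and the call was lost without MOLM-13 scramble replicate 2 (adjusted p = 0.065) or 3 (0.15), without MV411 scramble replicate 2 (0.32), and in DESeq2 (0.062). Of the 13 calls, 9 passed without any 1 library, those of MITF and CTSL among them.

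SKNO1 scramble libraries were compared with the mean of the other lines. There 8 members were higher and 21 lower, against 28.7% and 28.0% of all genes (medians -0.30 and 0.02). By role, 1 of 7 membrane proteins, 7 of 25 lumenal proteins, 0 of 8 pump subunits and 0 of 10 autophagy genes were higher, and 3, 9, 5 and 4 were lower. The log2 difference of SKNO1 was -3.86 ± 0.42 (adjusted p = 2.1e-08) for TFEB, -3.62 ± 0.41 (adjusted p = 5.5e-08) for FUCA1, -3.08 ± 0.36 (adjusted p = 7.8e-08) for MITF and -3.05 ± 0.23 (adjusted p = 4.4e-11) for TPP1. PSAP was higher by 1.51 ± 0.26 (adjusted p = 2.2e-05) and LGMN by 2.93 ± 0.53 (adjusted p = 4.8e-05). LGMN had 15 to 30 counts per scramble library in SKNO1, against 0 to 2 in MOLM-13 and 2 to 12 in MV411. In the fits of single lines LGMN passed the count filter in SKNO1 only, and MITF in the other lines only. Both were thus tested through the lines where they are high, and their calls, included in the counts, are no support for a difference. Of the 29 calls, 24 passed without any 1 library, those of TFEB, FUCA1, TPP1 and PSAP among them. Mitochondrial rRNA took 0.075% to 0.105% of counts in the SKNO1 scramble libraries and 22.8% to 27.8% in those of the other lines. With mitochondrial rRNA and the structured RNAs removed the counts were again 8 and 21. The line, the GM-CSF in its medium and this difference between the libraries cannot be told apart here.

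All 18 knockdown libraries were also compared with all 9 scramble libraries, with the groups weighted equally. Of 50 members 34 rose and 1 fell, against 11.2% and 12.1% of all genes (medians 0.46 and 0.04). By role 4 of 7 membrane proteins, 19 of 25 lumenal proteins, 5 of 8 pump subunits and 6 of 10 autophagy genes rose, and PPT1 was the member that fell. SQSTM1 rose by 0.84 ± 0.08 (adjusted p = 6.2e-08), PSAP by 1.34 ± 0.17 (adjusted p = 1.4e-06), MANBA by 0.68 ± 0.08 (adjusted p = 1.6e-06), ATP6V0A1 by 0.53 ± 0.08 (adjusted p = 1.6e-05) and GABARAPL1 by 1.04 ± 0.15 (adjusted p = 1.7e-05). PPT1 fell by 0.64 ± 0.13 (adjusted p = 0.00054), but with the hairpins fitted as 1 group its change was -0.48 (adjusted p = 0.18). Of the 35 calls, 32 passed without any 1 of the 27 libraries.

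The genes with the E-box core were set beside those without it. With hairpin 2 in MV411, 6 of the 9 genes with the core rose (median 1.06), and 19 of 28 genes with a window but no core rose and 1 fell (0.67). In MOLM-13 with hairpin 2, 2 of 9 and 6 of 28 rose (0.86 and 0.56), and in SKNO1 1 of 9 rose, and 9 of 27 rose and 1 fell (0.51 and 0.45). Of all genes tested, 8.38% rose and 10.2% fell in MV411, 3.39% and 6.03% in MOLM-13, and 5.54% and 5.69% in SKNO1. The share that rose was similar with and without the core in MV411 and MOLM-13, and lower with it in SKNO1. The core is unevenly spread over the roles, and its part in the medians was not tested. The genes with the core that rose in MV411 were LAMP1, CTSA, CTSD, GAA, NEU1 and PLD3, whose windows are printed above.

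Other genes of the same pathways were counted from lists of 33 lysosomal hydrolases and lumenal proteins, 25 membrane and transport proteins, 20 pump subunits and assembly factors, 44 autophagy genes and 26 genes of mTORC1 control at the lysosome. With hairpin 2, 2 of 32 other hydrolases rose in MOLM-13 (median 0.69), 17 of 31 in MV411 (0.62) and 5 of 33 in SKNO1 (0.25), where 2 fell. Of the other membrane proteins 1 fell in MOLM-13, 9 rose and 1 fell in MV411 (0.51), and 2 rose and 1 fell in SKNO1 (0.21). Of the other pump genes 1 rose in MV411 (0.15) and 1 fell in SKNO1 (0.14). Of the other autophagy genes 5 of 43 rose in MOLM-13, 8 of 42 rose and 1 fell in MV411 (0.21), and 6 of 43 rose and 2 fell in SKNO1 (0.10). Of the mTORC1 genes 4 rose and 4 fell in MV411 (-0.02), 3 rose in SKNO1 (0.05) and 0 passed in MOLM-13. Of all genes tested, 3.39% rose and 6.03% fell with hairpin 2 in MOLM-13, 8.38% and 10.2% in MV411, and 5.54% and 5.69% in SKNO1. The counts of the other pump genes lie near or below these shares.

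SGSH, a sulfatase of heparan sulfate breakdown, rose by 3.88 ± 0.66 (adjusted p = 0.0078) in MOLM-13, and DNASE2, the acid nuclease, by 3.43 ± 0.32 (adjusted p = 0.0002) in MV411. IDUA, which degrades the same sugars as SGSH, rose by 1.18 ± 0.27 (adjusted p = 0.025) in MOLM-13, and IFI30, a thiol reductase, by 1.77 ± 0.19 (adjusted p = 0.00027) in MV411. LAPTM4A, a relative of LAPTM5, rose by 1.46 ± 0.14 (adjusted p = 0.0002) in MV411 and 0.86 ± 0.18 (adjusted p = 0.012) in SKNO1, while LAPTM4B fell by 0.70 ± 0.17 (adjusted p = 0.028) in MOLM-13 and 1.06 ± 0.32 (adjusted p = 0.041) in MV411. CD68, a macrophage glycoprotein of the lysosome, rose by 1.77 ± 0.17 (adjusted p = 0.0002) in MV411. In SKNO1 the acid sphingomyelinase SMPD1 rose by 1.07 ± 0.23 (adjusted p = 0.011) and the phospholipase PLA2G15 by 0.85 ± 0.20 (adjusted p = 0.018), while the cathepsins CTSV and CTSW fell by 2.61 ± 0.52 (adjusted p = 0.0086) and 0.70 ± 0.19 (adjusted p = 0.033). The chloride transporter CLCN7 rose by 0.79 ± 0.22 (adjusted p = 0.035) and LAMP3 fell by 1.84 ± 0.37 (adjusted p = 0.0087) in SKNO1.

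Among pump genes, ATP6V1C1 rose by 0.70 ± 0.18 (adjusted p = 0.019) in MV411 and ATP6V1F fell by 0.75 ± 0.17 (adjusted p = 0.016) in SKNO1. TFEC, the fourth MiT factor, rose by 1.03 ± 0.20 (adjusted p = 0.013) in MOLM-13 and 1.5 ± 0.18 (adjusted p = 0.00046) in MV411. ATG16L2 rose by 0.96 ± 0.18 (adjusted p = 0.012) in MOLM-13, and GABARAP, of the ATG8 family, by 1.21 ± 0.15 (adjusted p = 0.00053) in MV411, where the membrane fusion protein VAMP8 fell by 0.58 ± 0.13 (adjusted p = 0.011). In SKNO1 the cargo receptor NBR1 rose by 1.05 ± 0.18 (adjusted p = 0.0036) and WDR45, a relative of WIPI1, by 1.12 ± 0.19 (adjusted p = 0.0038), while the mitophagy receptor BNIP3L fell by 1.32 ± 0.27 (adjusted p = 0.0096) and the kinase ULK2 by 0.85 ± 0.24 (adjusted p = 0.037).

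Of the mTORC1 genes, the sestrin SESN3 rose by 1.60 ± 0.33 (adjusted p = 0.0075) in MV411 and 0.86 ± 0.22 (adjusted p = 0.029) in SKNO1, where SESN2 rose by 0.65 ± 0.18 (adjusted p = 0.038). The GTPase RRAGD rose by 1.00 ± 0.23 (adjusted p = 0.012) in MV411, while LAMTOR2, of the complex that anchors it, fell by 0.93 ± 0.14 (adjusted p = 0.0012) and TSC1, an inhibitor of mTORC1, by 0.53 ± 0.12 (adjusted p = 0.013).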

How the data were processed

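RNA came from Trizol and RNeasy columns, and the libraries from the TruSeq Total Stranded kit with Ribo-Zero, per the labels' protocols. The submitters' processing notes name STAR 2.5.3, RSEM and the build GRCh38.p7. The strand setting of the counting is not given in the sources used here, so reads may be shared by genes overlapping on opposite strands. The authors deposited expected counts for 57992 genes in 27 columns, each matched to 1 sample by its label, without scaling for depth or length. A share of 30.39% of its values above 0 was not whole (tolerance 1e-09), because RSEM divides reads among genes.

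The expected counts were rounded for edgeR 4.0.16 (R 4.3.3, limma 3.58.1). Low genes were removed with filterByExpr at a minimum count of 10 and a total of 15, and libraries were scaled by TMM. The two-sided quasi-likelihood F-test was used, with Benjamini-Hochberg adjustment over every tested gene and a threshold of 0.05. Each hairpin was compared with scramble, and the hairpins with each other, in a fit of the 9 libraries of the line. Between-line, combined and scramble comparisons came from a fit of all 27 libraries in 9 groups. CPM were scaled by TMM over all 27 libraries, and per kb by the exon union of GENCODE 29, which held 57388 of the gene identifiers. The test was checked on simulated data. Figures and tables were made with Python 3.11.15, numpy 2.4.6, pandas 2.3.3 and matplotlib 3.10.9.

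The members and lists were chosen with earlier results of these data known. Levels in every library were given for TFEB, TFE3, MITF and LAMP1, and for the 4 members of each role that passed in most of the 6 hairpin comparisons. They were also given for members called in opposite directions, for up to 2 members per between-line comparison by smallest p, and for the 3 with the largest difference per scramble comparison. From each list of other pathway genes, up to 2 per direction were named for hairpin 2 in each line by smallest p. Members named otherwise were picked after their values were seen. Alternatives were DESeq2 1.42.0, RLE scaling, no low-count filter, removal of abundant RNAs, a replicate block, 1 fit of all 27 libraries, hairpins as 1 group, and each library left out.

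Replicate numbers come from the labels, which do not say what they share. Numbers were taken to pair 2 groups where every pair of same-numbered libraries deviated together from the group means with a correlation over 0.1. This held for scramble with hairpin 1 in MOLM-13 (0.135 to 0.287) and in MV411 (0.14 to 0.192), and for scramble with hairpin 2 in MV411 (0.155 to 0.501). Libraries with different numbers correlated at -0.259 to 0.111, -0.151 to 0.014 and -0.443 to 0.258 in these cases, in that order. The last range overlaps that of the same numbers, so the pairing there is not clear. Hairpin 1 with hairpin 2 in MV411 fell short of the rule (0.064 to 0.254), although different numbers gave -0.228 to -0.004.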

Additional observations from a re-analysis of the deposited data

Results flagged for a closer look

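In 3 cases the effect of hairpin 2 differed between lines by edgeR's interaction term. PPT1 differed by 1.624 on the log2 scale between MOLM-13 and SKNO1 (adjusted p = 0.041), CTSL by 3.306 between MV411 and SKNO1 (adjusted p = 0.014), and PSAP by 1.844 between MV411 and SKNO1 (adjusted p = 0.04). Their levels in every library and the fits in which the calls were lost are given above. For PPT1 the difference between MV411 and SKNO1 was 1.28 ± 0.37 (adjusted p = 0.092).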

How the results depend on the processing

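Among members chosen for listing by the rules above, no value that passed the test in the main fit or the alternative changed direction. Of 1731 values of single genes under alternatives that kept all libraries, 1638 kept their side of the threshold, 34 lost a call and 59 gained one. Of 2718 with 1 library left out, 152 lost and 8 gained a call.

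Counts of members called that moved by over 1.5 times were as follows, and the cause was not tested. Shares of all genes in these runs and in those with the replicate block are not given. Whether the members moved more than all genes therefore cannot be read from these counts. Without the low-count filter edgeR called 23 and 24 members for hairpins 1 and 2 in MOLM-13, 4 for hairpin 1 in SKNO1, and 1, 7 and 9 for the interactions of MOLM-13 with MV411, MOLM-13 with SKNO1 and MV411 with SKNO1. DESeq2 called 16 for hairpin 1 in MOLM-13, 9 for hairpin 1 and 22 for hairpin 2 in SKNO1, and 3 and 5 for the interactions with SKNO1 of MOLM-13 and MV411. A fit of all 27 libraries called 18 and 20 in MOLM-13, 3 for hairpin 1 in MV411, 0 for hairpin 1 in SKNO1, and 8 between the hairpins of MV411.

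With the replicate number as a block, counts moved to 4 for hairpin 1 in MOLM-13, 19 for hairpin 1 in MV411, 4 for hairpin 1 in SKNO1, 25 between the hairpins of MV411 and 0 for MOLM-13 against SKNO1. They were 8 for hairpin 2 in MOLM-13, 38 for hairpin 2 in MV411 and 19 for hairpin 2 in SKNO1. In groups whose numbers did not meet the pairing rule the lowest same-number correlation was -0.263, for scramble with hairpin 2 in MOLM-13.

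Leaving out 1 library gave 2 to 8 and 2 to 11 members for hairpins 1 and 2 in MOLM-13, 3 to 9 and 22 to 37 in MV411, and 0 to 4 and 4 to 9 in SKNO1. Between hairpins the ranges were 0 to 0 in MOLM-13, 9 to 21 in MV411 and 5 to 10 in SKNO1. The interactions gave 0 to 1 for MOLM-13 with MV411, 0 to 2 for MOLM-13 with SKNO1 and 0 to 2 for MV411 with SKNO1. The combined comparison gave 32 to 36, and the scramble comparisons 9 to 13 and 26 to 30.

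With 3 libraries a group, differences of low genes such as LGMN, MITF in MV411 and SKNO1, and TFEB in SKNO1 were not well measured at this depth. FUCA1 with hairpin 2 in SKNO1 lost its call with RLE scaling (adjusted p = 0.051) and with abundant RNAs removed (adjusted p = 0.053).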
